A study of Mus musculus with 8 samples.

Results

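The 10 CC chemokine genes described here are Ccl2, Ccl3, Ccl4, Ccl5, Ccl6, Ccl7, Ccl9, Ccl17, Ccl22 and Ccl24. They were chosen by gene name, and all 10 had a row among the 48709 genes of the deposited table. They were measured by messenger RNA sequencing in primary alveolar macrophages of the mouse, which live in the air spaces of the lung, from WT (C57BL/6J) mice and from Batf2-/- mice, which lack the AP-1 family transcription factor BATF2. Cells of both genotypes were kept ex vivo, given IFNg at 10 ng/mL for 4 h and then exposed for 6 h to culture supernatant of Klebsiella pneumoniae at 20%, a sequence meant to polarize them towards an M1-like state. There were 4 libraries per genotype, each from the cells of 4 pooled mice, or 16 mice per genotype. No unstimulated group was analysed here, so the values give the genotype difference in stimulated cells and not the induction of a chemokine. The labels do not give the age of the mice or the design of the Batf2 allele.

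CC chemokines are small secreted proteins with a pair of adjacent cysteines near the mature N terminus. They bind G protein-coupled receptors of the CCR family on leukocytes, which then adhere and migrate towards the source. Alveolar macrophages release several of them after contact with bacteria, and these draw monocytes, T cells, NK cells and, for some ligands, eosinophils into the lung. The genes lie in clusters, and neighbours are often switched on by the same stimuli through NF-kB, interferon signalling or, for the type 2 ligands, STAT6.

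In GRCm38, 7 of the 10 genes lay on chromosome 11, 2 on chromosome 8 and 1 on chromosome 5. On chromosome 11, Ccl2 (82035571 to 82037453, plus strand) and Ccl7 (82045712 to 82047525, plus strand) started 10.1 kb apart. The other 5 lay downstream in the order Ccl5 (83525778 to 83530518, minus), Ccl9 (83572919 to 83578636, minus), Ccl6 (83587882 to 83593087, minus), Ccl3 (83647844 to 83649355, minus) and Ccl4 (83662584 to 83664683, plus). The starts of Ccl3 and Ccl4 were 13.2 kb apart and those of Ccl6 and Ccl9 14.5 kb apart. Ccl22 (chromosome 8, 94745590 to 94751699, plus) and Ccl17 (94810453 to 94812036, plus) started 64.9 kb apart. Ccl24 stood alone on chromosome 5 (135569937 to 135573049, minus). Each range spans the whole annotated gene with its exons, introns and UTRs. In the annotation a gene on the opposite strand overlapped Ccl2 and another overlapped Ccl6. They had 0 and 7 counts over all 8 libraries, so at most a trace of signal could be divided with them.

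The total count of a library was between 31730041 and 39888022. Each library bears the number of its column, so that libraries 1 to 4 are WT and the remaining ones, 5 to 8, are Batf2-/-. Batf2 had 7361, 6691, 6054 and 4459 counts in libraries 1 to 4 and 0 in libraries 5 to 8. On the first principal component, libraries 4 (WT) and 8 (Batf2-/-) had the highest scores of their genotype. In each genotype 2 of the 4 pools expressed Xist, and libraries 4 and 8 were not among them. The defining genes of alveolar macrophages were present throughout, with Siglecf at 54.3 to 85.6 CPM (the count scaled to a common library total), Marco at 76.2 to 265 CPM and Pparg at 6.98 to 10.8 CPM. The 12 neutrophil markers summed to 20.4 to 33.2 CPM in WT and to 32.7 to 54.1 CPM in Batf2-/-, highest in library 8. Ly6g, Retnlg, Mpo and Elane among them had 0 counts in all libraries. Of 4 neutrophil markers tested, none passed by edgeR and 1 had an unadjusted p under 0.05, as did 942 of all 11083 genes tested. DESeq2 and limma-voom with quality weights called Cxcr2 higher. The median log2 fold change of the 4 was 0.58. The part of these cells in the chemokine values was not tested. The eosinophil gene Epx had 0 counts in all 8 libraries, and Cd3e, Cd79a, Flt3, Ccr2 and Col1a1 reached at most 0.822 CPM in any library. Epcam, an epithelial gene, stood at 7.42 to 14.3 CPM. In bulk RNA, fewer cells of a type and less RNA per cell cannot be told apart.

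**Figure D1:**
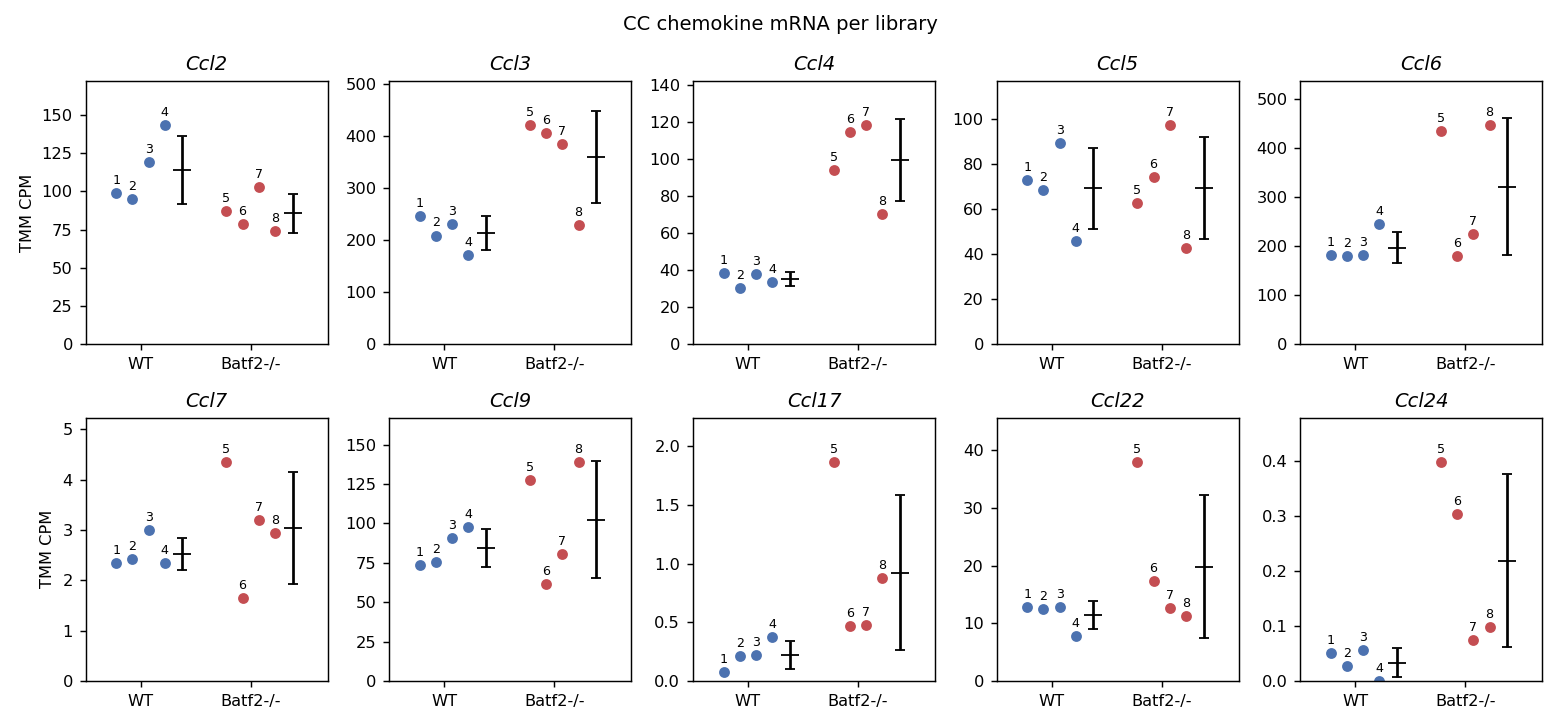
Level of each of the 10 CC chemokine genes in the 8 libraries, in CPM scaled by TMM factors, on linear axes that start at 0 and differ between panels. Points are libraries with their number, and the bar beside each group is the mean ± SD over 4 libraries. All 4 Batf2-/- libraries lie above all 4 WT libraries for Ccl4, Ccl17 and Ccl24. The same holds for 3.03% of all tested genes, a share that does not cover Ccl24. Ccl24, with 0 to 2 counts in WT and 3 to 16 in Batf2-/-, was not tested. Ccl17, with 3 to 12 counts in WT, passed the expression filter through its Batf2-/- libraries.

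Of the 10 genes, 9 passed the expression filter, and 1 of these 9, Ccl4, was called higher in Batf2-/- at an adjusted p under 0.05 by edgeR's quasi-likelihood test. None was called lower by edgeR, DESeq2 or limma-voom. Among all 11083 genes tested, 0.55% were called higher, 0.559% lower and 1.11% in either direction. All 4 Batf2-/- libraries lay above all 4 WT libraries for 2 of the 9, Ccl4 and Ccl17, and below them for 0 of the 9. Of all tested genes, 6.33% had groups that did not overlap, 3.03% with Batf2-/- above and 3.29% with Batf2-/- below. Ccl17 passed the expression filter through its Batf2-/- libraries, so that it had to differ to be tested. The fitted change was above 0 for 8 of the 9 genes, where 46.0% of all tested genes were above 0. Their median log2 fold change was 0.70, and that of all tested genes was -0.015. At an unadjusted p under 0.05 stood 5 of the 9, namely Ccl2, Ccl3, Ccl4, Ccl6 and Ccl17, and Ccl2 was the 1 on the lower side. At that level stood 942 of the 11083 genes tested. The counts and the median that include Ccl17 are not read against those of all genes.

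Ccl4 and Ccl3 are the macrophage inflammatory proteins 1 beta and 1 alpha. Both attract monocytes, T cells and NK cells, and Ccl3 binds CCR1. Ccl4 stood at 38.3, 30.5, 38.1 and 33.6 CPM in WT libraries 1 to 4 and at 94.2, 114.5, 118 and 70.1 CPM in Batf2-/- libraries 5 to 8. The lowest Batf2-/- value, in library 8, lay well above the highest WT value. Ccl4 rose 2.83-fold, with a log2 fold change of 1.499 ± 0.17 (SE) and an adjusted p of 0.00446 by edgeR (4 libraries per group). No gene among the 10 had a smaller p, and 0.189% of all tested genes did. The call held when any 1 library was left out (edgeR adjusted p from 9.2e-04 to 0.0234) but ended when libraries 1 and 5 were both omitted, which was tried with the results in view (log2 fold change 1.57, edgeR adjusted p = 0.0537).

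Ccl3 stood at 246, 209, 230 and 170.5 CPM in WT and at 421, 406, 383.5 and 230 CPM in Batf2-/-. Libraries 5, 6 and 7 lay above every WT library, whereas library 8 lay within the WT range, below library 1. The fitted difference was 1.68-fold, with a log2 fold change of 0.75 ± 0.20 (SE), and did not pass over all genes (edgeR adjusted p = 0.170). The call depended on library 8 and on the model. Without library 8 the log2 fold change was 0.91 and the edgeR adjusted p 0.0193, and without libraries 4 and 8 these were 0.83 and 0.00434. With all 8 libraries, DESeq2 (adjusted p = 0.0175) and limma-voom with quality weights (adjusted p = 0.0110) called Ccl3 too.

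The number of Ccl4 counts per Ccl3 count also differed between genotypes. It was 0.156, 0.146, 0.166 and 0.197 in WT libraries 1 to 4 and 0.224, 0.282, 0.308 and 0.305 in Batf2-/- libraries 5 to 8. The groups did not overlap, and the ratio was 1.68 times as high in Batf2-/- by geometric means, which is 0.75 on the log2 scale. The exact two-sided permutation test over the 8 libraries gave p = 0.0286, the smallest that 4 against 4 allows, and p = 0.0571 without library 1 or without library 2. This pair was chosen with the changes of both genes known, and the ratio is 1 quantity measured in the libraries that gave those changes.

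Ccl5, also called RANTES, shares the receptor CCR1 with Ccl3 and attracts T cells and monocytes. It stood at 72.7, 68.5, 89.4 and 46.0 CPM in WT and at 62.8, 74.4, 97.3 and 42.8 CPM in Batf2-/-. The groups overlapped over almost their whole range, and the lowest values of the genotypes were those of libraries 4 and 8. The log2 fold change was 0.004 ± 0.26 (SE; edgeR adjusted p = 1.00), and its sign changed between alternatives.

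Ccl6 and Ccl9 are chemokines of rodents that act through CCR1 and are made by macrophages and other myeloid cells. The 250 bases before the annotated start of each are shown because these neighbouring genes varied together, and Ccl3, which lies in the same cluster and did not vary with them, is shown for comparison. Sequences are from RefSeq on GRCm38.p6, read 5′ to 3′ on the gene's strand, which is minus for all of them. Capitals mark matches, on either strand, to the AP-1 motif TGANTCA or to the NF-kB consensus.
Ccl6, chr11:83593088-83593337: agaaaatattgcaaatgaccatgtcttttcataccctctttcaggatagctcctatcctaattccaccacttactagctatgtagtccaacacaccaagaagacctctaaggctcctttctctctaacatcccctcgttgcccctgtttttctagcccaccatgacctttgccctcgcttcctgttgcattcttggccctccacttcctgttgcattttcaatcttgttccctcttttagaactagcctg
Ccl9, chr11:83578637-83578886: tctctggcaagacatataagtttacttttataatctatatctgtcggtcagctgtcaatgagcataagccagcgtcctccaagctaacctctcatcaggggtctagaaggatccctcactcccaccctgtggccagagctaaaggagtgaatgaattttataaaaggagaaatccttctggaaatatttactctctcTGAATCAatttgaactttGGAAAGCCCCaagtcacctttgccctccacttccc
Ccl3, chr11:83649379-83649628: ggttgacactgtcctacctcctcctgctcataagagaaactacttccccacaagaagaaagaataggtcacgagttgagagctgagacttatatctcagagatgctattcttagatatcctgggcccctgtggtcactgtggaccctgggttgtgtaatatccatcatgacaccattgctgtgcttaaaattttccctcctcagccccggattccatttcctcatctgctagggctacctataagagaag
RefSeq start windows were matched for 5 of the 10 genes, namely Ccl3, Ccl6, Ccl9, Ccl17 and Ccl22, and those of Ccl2, Ccl4, Ccl5, Ccl7 and Ccl24 were not. Among the 5, Ccl9 alone held the AP-1 motif and alone held the NF-kB consensus, which 6.87% and 7.01% of all 27025 windows of that length held. Its AP-1 match covered positions -53 to -47 before the start, and its NF-kB match covered -35 to -26, with no overlap. The interferon-gamma activated sequence TTCNNNGAA was in the Ccl17 window alone, against 7.18% of all windows. The interferon-stimulated response element was in none of the 5, against 3.04% of all windows. A match is a run of letters in this window and not a measured binding site.

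Ccl6 stood at 182, 180, 182 and 245 CPM in WT and at 434, 180, 224.5 and 447 CPM in Batf2-/-. Libraries 5 and 8 lay far above every WT library, while libraries 6 and 7 lay within the WT range or, for library 6, marginally below it. The 1.63-fold difference (log2 fold change 0.70 ± 0.29, SE) did not pass (edgeR adjusted p = 0.514).

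Ccl9 had the same 2 high libraries. It stood at 73.6, 75.3, 90.6 and 98.0 CPM in WT and at 127, 61.3, 80.7 and 139 CPM in Batf2-/-. Its log2 fold change was 0.28 ± 0.25 (SE) and did not pass (edgeR adjusted p = 1.00). The spread of both genes was wider in Batf2-/-, with a coefficient of variation of 43.3% against 16.2% in WT for Ccl6 and of 36.3% against 14.0% for Ccl9. The summed level of the 16 alveolar macrophage markers was highest in the same libraries, at 12670 CPM in library 5 and 10420 CPM in library 8, against 5908 to 7241 CPM in WT and 8062 and 8590 CPM in libraries 6 and 7. A single gene, Chil3, carried this pattern. Without it the other 15 markers summed to 3273 to 3712 CPM in WT and to 3845, 3820, 3526 and 3386 CPM in libraries 5 to 8, so that library 8 was within the WT range. Of the whole list, 15 genes were tested, 1 rose by edgeR (Car4), and none had 0 counts throughout. Among all tested genes 0.55% were called higher. At an unadjusted p under 0.05 stood 3 of the 15, against 942 of all 11083 genes tested. DESeq2 called Chil3 higher too (edgeR adjusted p = 0.1465), and limma-voom, with or without quality weights, did not.

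Ccl2 and Ccl7 are the monocyte chemoattractant proteins 1 and 3, ligands of CCR2, the receptor that brings monocytes out of the bone marrow and into inflamed tissue. Ccl2 was the 1 gene of the 10 with a lower mean in Batf2-/-. It stood at 98.9, 95.1, 119 and 143.5 CPM in WT and at 87.0, 78.5, 103 and 74.3 CPM in Batf2-/-. Only library 7 reached into the WT range. The log2 fold change was -0.42 ± 0.16 (SE), and the edgeR adjusted p was 0.463. It was below 0 in all 21 alternatives, from -0.52 to -0.21, and called in none (lowest adjusted p = 0.153).

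Ccl7 stood at 2.34, 2.42, 3.00 and 2.35 CPM in WT and at 4.36, 1.66, 3.20 and 2.93 CPM in Batf2-/-. Library 5 was highest and library 6 lowest of all 8, so the Batf2-/- range enclosed the WT range. The log2 fold change was 0.27 ± 0.26 (SE; edgeR adjusted p = 1.00). Without library 5 it was 0.040.

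Ccl17 and Ccl22 are the ligands of CCR4, a receptor of T helper 2 and regulatory T cells, and are made mainly by dendritic cells and alternatively activated macrophages. Ccl22 stood at 12.8, 12.5, 12.8 and 7.80 CPM in WT and at 38.1, 17.4, 12.7 and 11.3 CPM in Batf2-/-. Library 5 was far above all others, library 6 came next, and libraries 7 and 8 were in the WT range. The log2 fold change of 0.79 ± 0.37 (SE) did not pass (edgeR adjusted p = 0.629), and without library 5 it was 0.27 (adjusted p = 1.00).

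Ccl17 was near the lower end of detection, with 3, 8, 8 and 12 counts in WT and 75, 17, 19 and 27 counts in Batf2-/-. These were 0.0770, 0.213, 0.222 and 0.371 CPM against 1.87, 0.469, 0.475 and 0.881 CPM. The groups did not overlap, as for 3.03% of all tested genes in the same direction, but Ccl17 passed the expression filter through its Batf2-/- libraries, so that it had to differ to be tested. The log2 fold change was 2.08 ± 0.57 (SE), or 4.23-fold, and did not pass (edgeR adjusted p = 0.185). DESeq2 called it (adjusted p = 0.0211). Without library 5 the edgeR log2 fold change was 1.46 (adjusted p = 0.361).

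Ccl24, eotaxin 2, attracts eosinophils through CCR3 and is a marker of alternatively activated macrophages. It did not pass the filter, with 2, 1, 2 and 0 counts in WT libraries 1 to 4 and 16, 11, 3 and 3 counts in Batf2-/- libraries 5 to 8. The Batf2-/- libraries were all higher, at 33 counts over the group against 5. Without a filter on low counts, the log2 fold change was 2.57 and did not pass (edgeR adjusted p = 0.256), nor did it by DESeq2 (adjusted p = 0.153).

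Library 5 thus held the highest Ccl3, Ccl7, Ccl17, Ccl22 and Ccl24 values of the series. It also held the highest summed level of the 14 lymphocyte markers, 4.36 CPM against 0.505 to 1.08 CPM in WT and 0.580 to 3.03 CPM in libraries 6 to 8. Cd4 stood at 1.64 CPM and Cd3e at 0.648 CPM there, and 1 gene of the list, Ncr1, had 0 counts in all libraries. The 10 monocyte and interstitial macrophage markers summed to 1.60 CPM in library 5 and to 0.469 to 0.815 CPM elsewhere, with Lyve1 and Cd163 at 0. The 10 dendritic cell markers summed to 11.3 CPM in library 5, within the WT range of 9.97 to 14.0 CPM, with Cd209a and Siglech at 0. Of 5 dendritic cell markers tested, 1 fell and none rose by edgeR, where 0.559% of all tested genes were called lower. The marker that fell was Clec9a, at 2.31 to 2.61 CPM in WT and 0.200 to 0.359 CPM in Batf2-/- (edgeR adjusted p = 1.2e-04). DESeq2 also called Zbtb46 higher (edgeR adjusted p = 0.0965); both were named after their values were seen. The part of any of these cells in the Ccl17 and Ccl22 values was not tested.

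**Figure D2:**
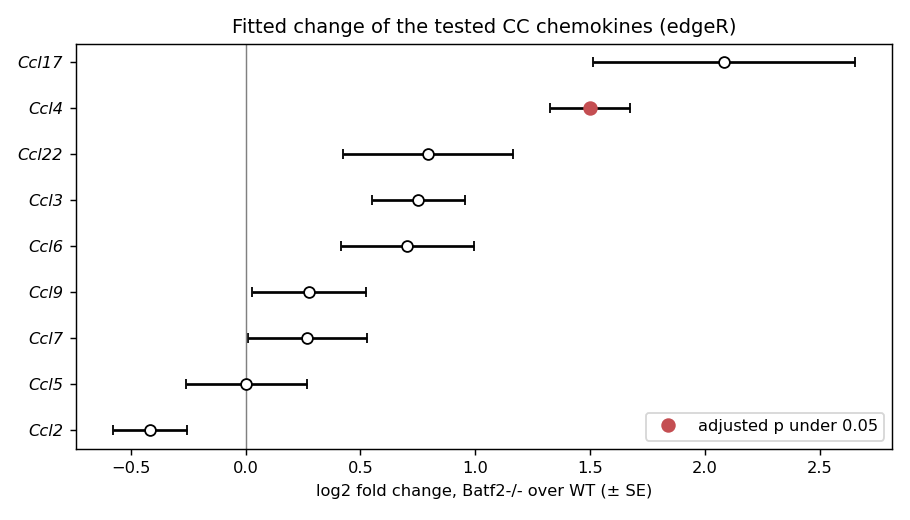
Fitted log2 fold change, Batf2-/- over WT, of the 9 CC chemokine genes that passed the expression filter, with standard errors from edgeR (4 libraries per group). The filled red point is Ccl4, called at an adjusted p under 0.05, and open points were not called.

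Levels of different genes were compared per length, as CPM per kilobase of annotated exon (mean ± SD, n = 4 libraries). In WT, Ccl3 was the most abundant of the 10 at 279 ± 42.8 CPM per kb, above every other gene in every library. It was followed by Ccl6 (110 ± 17.8), Ccl2 (100.4 ± 19.6), Ccl5 (72.02 ± 18.6) and Ccl4 (53.2 ± 5.69), where each overlapped the next in range. Ccl9 followed at 27.7 ± 3.89, with a range apart from that of Ccl4. Ccl22 (4.93 ± 1.05) and Ccl7 (3.15 ± 0.394) overlapped each other, and Ccl17 (0.430 ± 0.234) and Ccl24 (0.0258 ± 0.0198) came last, each apart from the gene before it.

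In Batf2-/-, Ccl3 again led at 470 ± 115 CPM per kb, and Ccl4 took the third place at 150 ± 33.6. The range of Ccl4 overlapped that of Ccl6 (179 ± 77.4) and lay above those of Ccl2 (75.2 ± 11.04) and Ccl5 (72.2 ± 23.7). The 10 genes summed to 607 to 697 CPM per kb in WT and to 821 to 1143 CPM per kb in Batf2-/-. Ccl3 made up 35.7% to 47.6% of that sum in WT and 36.5% to 54.0% in Batf2-/-. The share of Ccl4 was 7.62% to 8.58% in WT and 12.5% to 17.7% in Batf2-/-, and that of Ccl2 was 12.8% to 20.2% and 6.68% to 8.73%. These sums and shares are a description of the same libraries and carry no test.

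**Figure D3:**
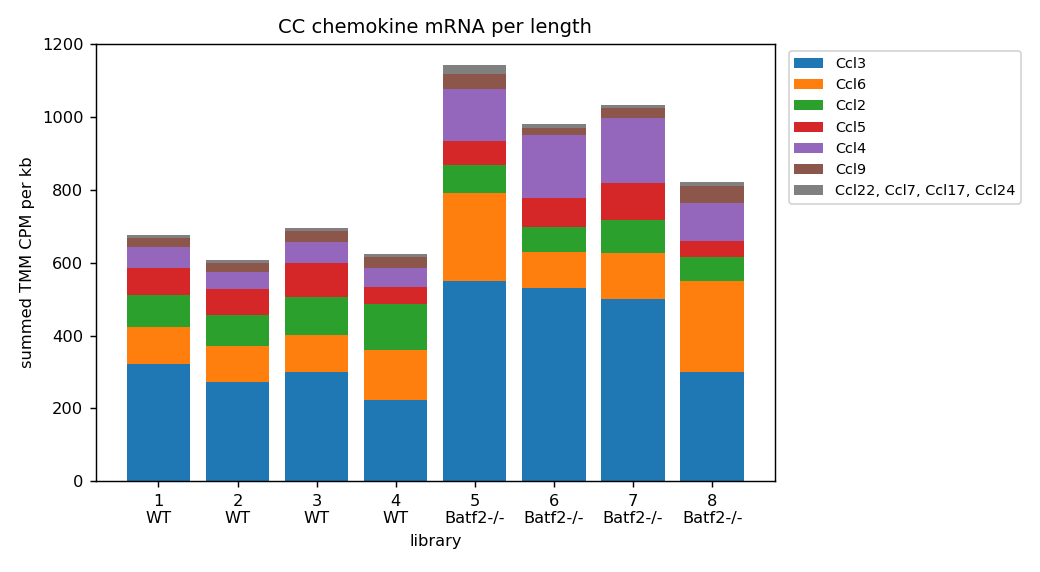
Stacked level of the CC chemokines per length in each library, in CPM per kilobase of annotated exon on a linear axis from 0. The 4 Batf2-/- libraries reach 821 to 1143 and the 4 WT libraries 607 to 697, with Ccl3 as the largest segment in every bar.

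The genes fell into sets that deviated together between libraries of the same genotype. Relative to the genotype mean of log2 CPM, the deviations of Ccl3, Ccl4 and Ccl5 correlated with each other at r = 0.80 to 0.81. Those of Ccl6 and Ccl9 correlated at r = 0.97 and those of Ccl17 with both at r = 0.77 and 0.76. Between these sets the signs were opposite, with r = -0.76 for Ccl4 and Ccl6 and r = -0.74 for Ccl5 and Ccl6. For Ccl3 these were r = -0.56 with Ccl6 and r = -0.58 with Ccl9. These values describe 8 libraries of 1 study and carry no test.

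Over all 8 libraries, Ccl6 and Ccl9 had a Pearson's r of 0.92 (exact permutation p = 0.00253, adjusted over 36 pairs of tested genes p = 0.0455) and a Spearman's rho of 0.88 (exact permutation p = 0.00724, adjusted p = 0.130). Without libraries 5 and 8, the farthest from the median of Ccl6, r was 0.64, so that the relation rested largely on them. Ccl3 and Ccl22 had r = 0.77 (exact permutation p = 0.00181, adjusted p = 0.0455) and rho = 0.88 (exact permutation p = 0.00724, adjusted p = 0.130), and r = 0.63 without libraries 5 and 6. No other pair passed by either measure. Libraries were permuted across both genotypes as if exchangeable, so a genotype difference shared by a pair enters r and p. Over all tested genes, deviations of libraries at the same column position also correlated, at 0.27 to 0.76. The 8 libraries may therefore not be independent, and these p-values may be too small. The same holds for the deviations above, which carry no test. A genotype holds 4 libraries, too few for a value of its own.

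**Figure D4:**
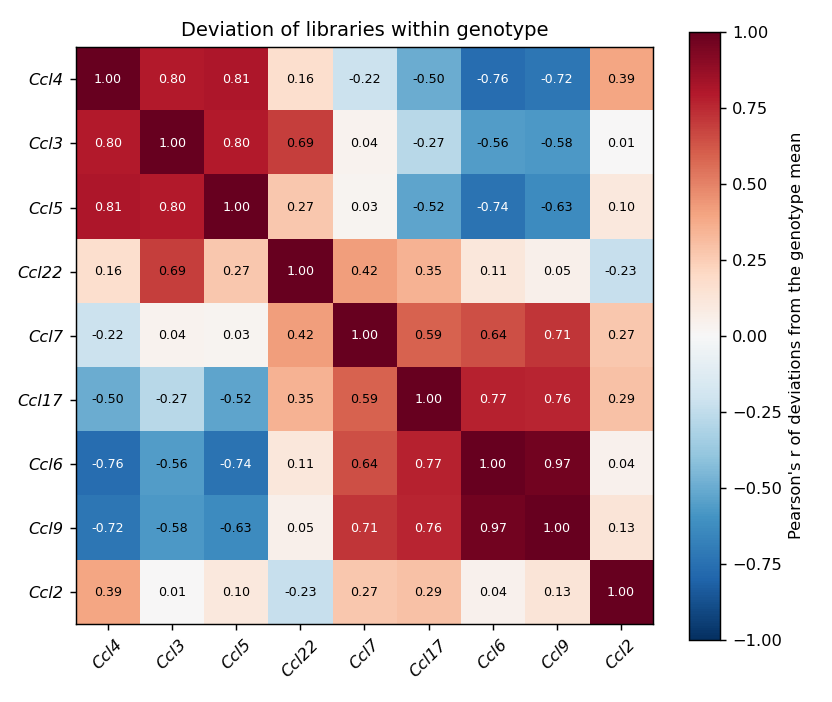
Pearson's r between the deviations of log2 CPM from the genotype mean for each pair of the 9 tested CC chemokines, over 8 libraries. Ccl4, Ccl3 and Ccl5 form a block with r of 0.80 to 0.81, and Ccl17, Ccl6 and Ccl9 another with r of 0.76 to 0.97.

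The genes whose log2 CPM followed a chemokine most closely over the 8 libraries differed within the sets as well as between them. For Ccl4 they were Rhob (r = 0.98), a small GTPase of the actin cytoskeleton and endosomes, Alas1 (r = 0.97), which encodes the enzyme of the committed step of heme synthesis, and Rnf180 (r = 0.97). Rhob also rose, with a log2 fold change of 1.008 (edgeR adjusted p = 0.0151). For Ccl3 they were Dnajc1 (r = 0.99), Ifnar1, a subunit of the type I interferon receptor (r = 0.98), and Chst11, a chondroitin sulfotransferase (r = 0.98). Ccl17 was followed by Chil3, a chitinase-like protein of alveolar macrophages (r = 0.99). Chil3 stood at 8823, 4242, 5064 and 7034 CPM in libraries 5 to 8 against 2488 to 3968 CPM in WT. Ccl22 was followed by Marcksl1, Mmp14 and Lcp1 (r = 0.97 to 0.98), Ccl6 by Coro1a, Ugt1a7c and Gpr141 (r = 0.95 to 0.96), and Ccl9 by Pyhin1, Il15ra and Pnp2 (r = 0.94). Pyhin1 was also among the 3 for Ccl7 (r = 0.90), with Tsc22d3 and Phlda3 (r = 0.91). The 3 genes for Ccl2 were Wdr18, Tmed10 and Rab4b (r = 0.93 to 0.96), and for Ccl5 Rbm15, Ncbp3 and Klc2 (r = 0.91 to 0.94). Unlike the deviations from the genotype mean, these values include any genotype difference. With 8 points and 11083 genes such values arise readily, and they are given as a description.

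Other CC chemokines were at or near 0. Of 14 listed, 13 had a row, 3 passed the filter and 6 had 0 counts in all 8 libraries (Ccl19, Ccl21a, Ccl21b, Ccl26, Ccl27b and Ccl28). None of the 3 tested passed by edgeR, DESeq2 or limma-voom, and 0 had an unadjusted p under 0.05. Ccl12, a CCR2 ligand of the mouse, stood at 1.09 ± 0.311 CPM in WT against 1.35 ± 0.372 CPM in Batf2-/- (SD, n = 4). Ccl25, which directs T cells to the gut and thymus, stood at 1.17 ± 0.485 and 1.54 ± 0.286 CPM, and Ccl27a at 0.361 ± 0.178 and 0.458 ± 0.221 CPM. Ccl27a belongs to a group of near-identical copies, so its counts are uncertain. Ccl8 had 0, 0, 1 and 1 counts in WT and 2, 0, 5 and 11 in Batf2-/-.

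Among 15 CC receptor genes, 5 were tested and none passed by edgeR, with a median log2 fold change of -0.18. At an unadjusted p under 0.05 stood 2 of the 5, as did 942 of all 11083 genes tested. Ccrl2, an atypical receptor that binds chemerin and does not drive migration, was the most abundant of the receptors. It stood at 516, 465, 491 and 526 CPM in WT and at 397, 352, 388 and 369 CPM in Batf2-/-, so that the groups did not overlap. Its log2 fold change was -0.41 (edgeR adjusted p = 0.127), and DESeq2 and limma-voom with quality weights called it lower. Ccr1, the receptor of Ccl3, Ccl5, Ccl6 and Ccl9, stood at 94.1 ± 25.9 CPM in WT against 140 ± 34.5 CPM in Batf2-/- (edgeR adjusted p = 0.492). Ccr7, which guides cells to lymph nodes, stood at 3.01 ± 0.550 and 2.65 ± 0.629 CPM (adjusted p = 1.00). Ccr4, which binds Ccl17 and Ccl22, had 0, 0, 0 and 2 counts in WT and 33, 2, 2 and 10 counts in Batf2-/-, highest in library 5, where Ccl17 and Ccl22 were also highest.

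In the signalling chain below the receptors, 1 of 17 tested genes fell, none rose and 16 did not pass. Among all tested genes 0.559% were called lower. Rgs2, which speeds the shutdown of G protein alpha subunits, fell from 2.95, 3.03, 4.02 and 4.68 CPM in WT to 1.47, 1.46, 2.05 and 1.63 CPM in Batf2-/-. The groups did not overlap (log2 fold change -1.14, edgeR adjusted p = 0.0294). Rgs1, a relative that dampens chemokine receptor signalling, stood at 61.3 ± 9.74 and 39.0 ± 9.99 CPM (adjusted p = 0.279), and Pik3r5, a regulatory subunit of PI3K gamma, at 153 ± 30.5 and 210 ± 34.8 CPM (adjusted p = 0.472). The median log2 fold change of this list was -0.0029.

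Of 29 sensors and transcription factors known to act on these genes, none passed by edgeR, DESeq2 or limma-voom. Their median log2 fold change was 0.035. At an unadjusted p under 0.05 stood 3 of the 29, as did 942 of all 11083 genes tested. Those 3 were Myc at 13.02 ± 2.53 CPM in WT against 8.17 ± 2.13 CPM in Batf2-/- (edgeR adjusted p = 0.259), Fos at 8.18 ± 1.78 and 5.603 ± 0.9105 CPM (adjusted p = 0.347) and Fosl2 at 28.2 ± 7.61 and 47.0 ± 16.1 CPM (adjusted p = 0.4065). Limma-voom with quality weights called Myc lower. Of 11 tested genes for decay of inflammatory mRNAs, none passed by edgeR, DESeq2 or limma-voom and 0 had an unadjusted p under 0.05. Zfp36, or tristetraprolin, which destabilizes AU-rich transcripts, stood at 79.4 ± 15.6 and 97.0 ± 25.3 CPM (adjusted p = 0.975). Of 10 tested proteases and inhibitors that act on chemokines, none passed by edgeR. At an unadjusted p under 0.05 stood 3 of the 10, against the same 942 of 11083. Timp1, a metalloprotease inhibitor, stood at 1.76 ± 0.290 and 2.86 ± 0.295 CPM (adjusted p = 0.104) without overlap. It was called higher by DESeq2 and by limma-voom with quality weights. Serpinb1a, an inhibitor of neutrophil proteases, stood at 3.79 ± 1.14 and 2.40 ± 0.413 CPM (adjusted p = 0.348), and Mmp14, a membrane metalloprotease, at 103 ± 13.4 and 140 ± 37.4 CPM (adjusted p = 0.550).

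The surroundings of the chemokine genes were compared with the same fit. Within 500 kb of the start of any of the 10, 48 other genes were tested. Of these 2 rose and none fell (0.55% of all tested genes were called higher). At an unadjusted p under 0.05 stood 4 of the 48, all higher and all on chromosome 11, as did 942 of all 11083 genes tested. Both called genes lay on chromosome 11, where 20 neighbours were tested with a median log2 fold change of 0.12. Slfn10-ps, a Schlafen pseudogene whose counts may be shared with its close relatives, started 490.5 kb from Ccl5 and rose, with 1.43 ± 0.200 CPM in WT against 3.44 ± 1.06 CPM in Batf2-/- (mean ± SD over 4 libraries, edgeR adjusted p = 0.0375). DESeq2 and limma-voom with quality weights called it too, but limma-voom without weights did not. AA465934 started 239 kb from Ccl5 and had 1, 0, 2 and 0 counts in WT and 21, 17, 12 and 16 counts in Batf2-/- (adjusted p = 0.00929). It passed the expression filter only through its Batf2-/- libraries, so that it had to differ to be tested, and the share of neighbours called is not read against the background. The neighbours of Ccl4 on its far side, Wfdc17 and Wfdc21, had log2 fold changes of 0.36 and 1.08. They did not pass (edgeR adjusted p of 0.954 and 0.270) and were named after their values were seen. On chromosome 8, 15 neighbours of Ccl22 and Ccl17 were tested and none passed by edgeR, DESeq2 or limma-voom, with 0 at an unadjusted p under 0.05. Without all other genes of chromosome 11 in the fit, the log2 fold change of Ccl4 was 1.499 (edgeR adjusted p = 0.00510).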

How the data were processed

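Messenger RNA of 8 pooled samples of stimulated mouse alveolar macrophages was sequenced, 4 per genotype. The authors deposited total counts per gene, per the file headers, and their values are whole numbers with unequal sums. Libraries were made with a stranded kit, per the labels' protocols, and the build was GRCm38 (mm10), as the submitters' processing notes state. How reads were aligned and counted, and with which strand setting, is not given in the sources used here. Of 48709 genes, 48349 identifiers matched the GENCODE annotation of GRCm38, which gave coordinates and exon lengths. Columns were assigned to a genotype by the heading above them and carry no replicate number of the labels. Libraries of a group differed by more than sampling noise (lowest chi-square over degrees of freedom 30.5), so all 8 were kept. p-values measure the spread between pools, not between mice.

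The test was edgeR 4.0.16 (quasi-likelihood, robust, TMM factors, default expression filter, genotype as the only term) in R 4.3.3, with Benjamini-Hochberg adjustment over 11083 genes and a threshold of 0.05. It was tested on simulated data. CPM are counts scaled with the TMM factors. Log2 CPM for correlations used a prior count of 2. Alternatives were DESeq2 1.42.0, limma-voom 3.58.1, other factors and filters, a covariate for the sex of the pools, and fits that left out libraries or other chromosome 11 genes. The genes and lists were chosen with earlier results of these data known. Genes named outside the 10 were taken by a rule: the called or the most abundant relatives and receptors, the called or up to 3 lowest p of other pathway lists, called neighbours within 500 kb, and the 3 genes of highest correlation with mean log2 CPM of at least 2; not all are printed. The Poisson error of a count was at most 6.30% for the chemokines other than Ccl7 (7.56% to 12.9%), Ccl17 and Ccl24, whose errors were larger.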

Additional observations from a re-analysis of the deposited data

Results flagged for a closer look

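In WT, library 4 stood away from the other 3 for Ccl6 (245 CPM, where the others were at 180 to 182) and for Ccl22 (7.80 CPM, where the others were at 12.5 to 12.8). In WT, Ccl7 in library 3 (3.00 CPM, 108 counts) lay above the other 3 libraries (76 to 91 counts), where the Poisson error of a Ccl7 count was 7.56% to 12.9%. In each case the gap to the nearest library took up most of the range of the group, beyond Dixon's 95% limit for 4 values. In 24 groups looked at, chance gives about 1 in 20 such flags, and there were 3. No other value of a chemokine, of Batf2 or of the Ccl4 to Ccl3 ratio was marked in this way.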

How the results depend on the processing

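Ccl4 was called higher in 20 of 21 alternatives, with log2 fold changes of 1.40 to 1.63. Of the 10 chemokines, 3 were called with DESeq2 (Ccl3, Ccl4 and Ccl17), 2 with limma-voom with quality weights, 2 without libraries 4 and 8 (both Ccl3 and Ccl4) and 1 to 2 when single libraries were left out. Without libraries 1 and 5, chosen after the data were seen, 0 were called by edgeR, with 4 at an unadjusted p under 0.05. Over all genes, 123 of 11083 were called, against 343 of 16518 with DESeq2, which ran without the expression filter. With quality weights 370 of 11083 were called. Without libraries 4 and 8 there were 206, and without libraries 1 and 5 there were 34. When single libraries were left out, 43 (without library 3) to 142 (without library 8) were called. The counts were 76, 63, 76, 77 and 59 without libraries 1, 2, 5, 6 and 7.

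The labels number replicates but the columns do not, so a replicate block could only be set by column position, a pairing the labels do not give. Deviations at the same position correlated at 0.27 to 0.76, and each of the 8 libraries correlated best with its own position. With this block 1390 of 11083 genes were called by edgeR. So were 3 of the 9 chemokines tested (Ccl3, Ccl4 and Ccl17), at adjusted p of 9.3e-04, 0.00372 and 0.0489. Ccl17 passed the expression filter through its Batf2-/- libraries. The log2 ratio of Ccl4 to Ccl3 was 0.69 to 0.85 when single libraries were left out (exact permutation p of 0.0571 without library 1 or 2). It was 0.79 without libraries 4 and 8, 0.83 without libraries 1 and 5, and 0.75 as 4 pairs, with exact p of 0.100, 0.100 and 0.125, the smallest those designs allow.

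Ccl5, at 0.004, turned below 0 with DESeq2 (-0.0019), limma-voom (-0.018, or -0.025 with quality weights), no filter (-0.0063) and the block (-0.017), and ranged from -0.21 to 0.18 when single libraries were left out. With quality weights Ccl7 (-0.0048) and Ccl9 (-0.032) also turned. The cause was not tested. Ccl17 was not tested under the stricter filter.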
